A study of Mus musculus with 18 samples.

Results

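*Myh6* and *Esr1* are the source genes of the αMHC-MerCreMer transgene carried by the *Mettl3* KO mice of this series, and the data were the union peaks of a ChIP-seq table that lie on either gene. A peak was taken if its annotated symbol was *Myh6*, if it overlapped the *Myh6* gene or the 6 kb upstream of it, or if it lay on *Esr1*. The rule found 11 of 101256 peaks, 2 on *Myh6* and 9 on *Esr1*. The genes were picked because earlier results of these data showed more signal there in *Mettl3* KO than in WT, namely in the CTCF libraries at *Myh6*, and in the libraries of all antibodies, Pol II above all, at 5 *Esr1* peaks. The values of those contrasts are therefore given as a description without a test.

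*Myh6* encodes α-myosin heavy chain (αMHC), the main motor protein of the adult mouse ventricle, and its promoter is widely used to drive transgenes in cardiomyocytes. *Esr1* encodes estrogen receptor α, a nuclear receptor whose C-terminal part binds the hormone. In MerCreMer, the Cre recombinase is flanked on both sides by a mutated ligand-binding part of the mouse estrogen receptor. The fusion protein stays out of the nucleus until tamoxifen is bound, and then recombines loxP sites. A transgene of this kind adds copies of *Myh6* promoter sequence and of spliced *Esr1* coding sequence to the genome, and a read from such a copy can only be aligned to the endogenous gene. The structure of the transgene was not determined here, and its part in the results was not tested.

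Chromatin came from ventricles of adult mice, with 2 hearts used in a preparation according to the methods of the study. The groups were WT, *Trdn-as* KO with a polyA signal inserted in the first exon of the antisense gene, and *Mettl3* KO with the genotype Mettl3lox/lox:alphaMHC-MerCreMerpos. The transgene is named for the *Mettl3* KO mice only, and tamoxifen was given to induce deletion in cardiomyocytes. The methods also name Mettl3lox/lox control mice that were injected with tamoxifen. The labels name the controls WT, and do not say whether the WT or the *Trdn-as* KO mice received tamoxifen. Genotype, floxed alleles, transgene and tamoxifen thus cannot be told apart in any comparison with *Mettl3* KO. There were 2 libraries of RNA polymerase II (Pol II), 2 of CTCF and 1 of IgG, a control antibody without a chromatin target, for each of the 3 genotypes. Input chromatin, 3 libraries, was not analysed here.

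The deposited values are read counts per peak normalized to the library and rounded to whole numbers. From the spacing of the values, 1 read was worth 0.945 to 2.04 in the Pol II libraries, 0.284 to 0.458 in the CTCF libraries and 2.55 to 6.57 in the IgG libraries. This gave 1991582 to 4947518 estimated reads in peaks for Pol II, 6788037 to 10172827 for CTCF and 272217 to 810801 for IgG. Where libraries of different antibodies are set side by side, estimated reads per 1000000 uniquely mapped reads (RPM) are used, with the mapped reads as listed by the study. Replicate 2 of the *Trdn-as* KO Pol II libraries stood apart, with 18.6% of its mapped reads in peaks against 35.6% to 42.5% in the other 5. The summed Pol II value of 6 cardiomyocyte markers was 14573 and 15584 for WT and 14404 and 14535 for *Mettl3* KO. For *Trdn-as* KO it was 11579 and 15252, the lower value in replicate 2. The sum of the 4 fibroblast markers was 564 and 580 for WT, 564 and 838 for *Trdn-as* KO and 1169 and 1189 for *Mettl3* KO. For 3 endothelial markers the sum was 589 to 842, for 2 leukocyte markers 86 to 134, and for *Krt18*, the only epithelial marker with a peak, 1 to 6. In such bulk chromatin, a change in the number of cells and a change in Pol II per cell cannot be told apart.

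The *Esr1* gene lies on the plus strand of chromosome 10 from 4561593 to 4955614 in GRCm39, the build of the table. It has the same length of 394022 nt in GRCm38, so that exons of the GENCODE annotation of GRCm38 could be placed on it by their distance from the gene start. Of its 9 peaks, 1 lay at the annotated promoter within exon 1, 3 lay in introns, and 5 lay on coding exons. The main coding transcript has 9 exons, of which 8 are coding. Peaks were found on exons 5, 6, 7, 8 and 9, whereas the 3 coding exons before them had none. Exons 5 to 9 encode residues 258 to 599 of the 599 residues of the receptor, the part that contains the ligand-binding domain.

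The 5 peaks followed the exon borders. The exon 5 peak, at 4806875 to 4807242, began 17 nt inside the exon and ended 49 nt after it. The exon 6 peak, at 4889153 to 4889399, began 59 nt before and ended 49 nt after its exon of 139 nt. The exon 7 peak, at 4919098 to 4919349, began 61 nt before and ended 57 nt after an exon of 134 nt. For exon 8, the peak at 4947771 to 4948059 began 59 nt before and ended 46 nt after 184 nt of exon. The peak on exon 9, at 4951147 to 4951473, began 42 nt before the exon and ended 53 nt past the last coding base. This exon goes on for another 2341 nt of non-coding sequence, of which 2288 nt lay outside the peak. From the start of the exon 5 peak to the end of the exon 9 peak, the peaks covered 1483 of 144599 nt, and the introns between them held no other union peak.

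**Figure D1:**
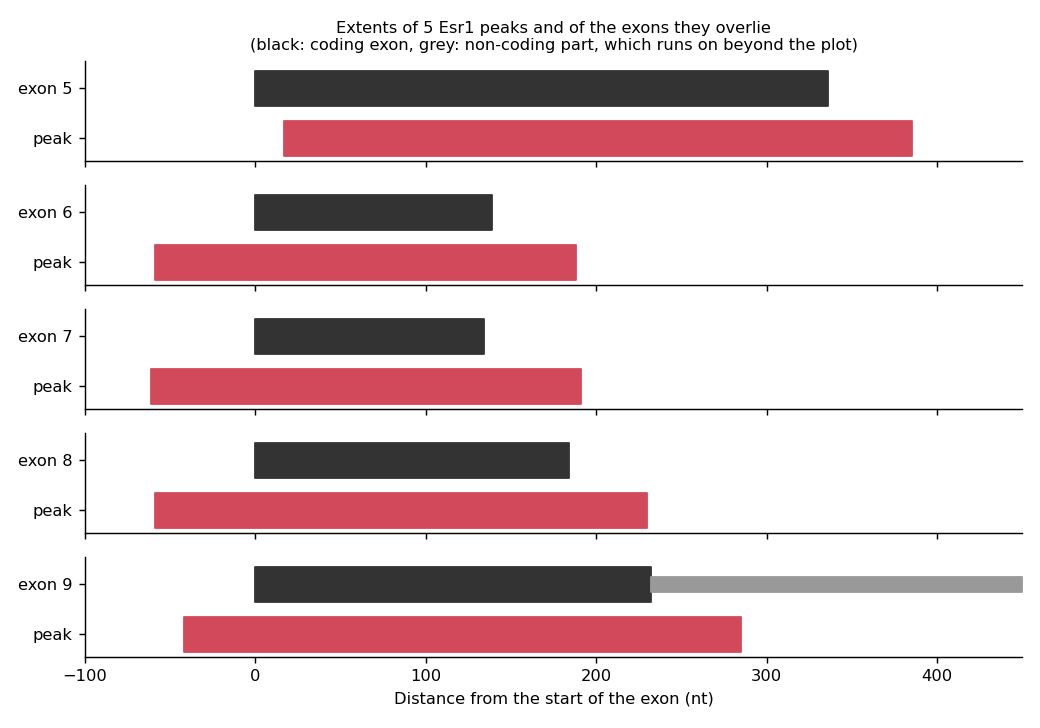
Extents of the 5 *Esr1* peaks (red) and of the exons under them (black, coding; grey, non-coding), by distance in nt from the start of each exon. The peaks on exons 6, 7 and 8 reach 46 to 61 nt beyond both borders, the exon 5 peak starts 17 nt inside the exon, and the exon 9 peak stops 53 nt after the coding sequence.

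The exon sequences under these peaks are shown because the *Esr1* peaks that set *Mettl3* KO apart lay on them. They are taken from the GENCODE vM21 transcript, plus strand of GRCm38, with capitals for bases inside a peak. Exon 5 is given by its first 100 bases at chr10:4856858-4856957, exon 6 is chr10:4939212-4939350, exon 7 is chr10:4969159-4969292, exon 8 is chr10:4997830-4998013, and exon 9 is given by its coding bases at chr10:5001189-5001420.
Exon 5: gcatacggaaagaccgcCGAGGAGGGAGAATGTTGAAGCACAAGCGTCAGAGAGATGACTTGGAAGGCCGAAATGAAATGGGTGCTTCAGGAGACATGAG
Exon 6: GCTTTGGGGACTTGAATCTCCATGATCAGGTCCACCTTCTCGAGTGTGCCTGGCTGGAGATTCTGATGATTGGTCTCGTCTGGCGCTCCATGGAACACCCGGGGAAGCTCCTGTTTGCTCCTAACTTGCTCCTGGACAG
Exon 7: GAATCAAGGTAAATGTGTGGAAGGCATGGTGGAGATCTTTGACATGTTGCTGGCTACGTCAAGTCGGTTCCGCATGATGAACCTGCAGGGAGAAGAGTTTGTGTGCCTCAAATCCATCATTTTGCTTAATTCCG
Exon 8: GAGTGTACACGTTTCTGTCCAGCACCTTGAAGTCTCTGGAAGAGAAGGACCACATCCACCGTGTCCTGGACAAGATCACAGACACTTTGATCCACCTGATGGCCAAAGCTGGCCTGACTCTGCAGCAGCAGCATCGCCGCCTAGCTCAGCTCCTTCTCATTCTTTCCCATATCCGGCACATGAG
Exon 9: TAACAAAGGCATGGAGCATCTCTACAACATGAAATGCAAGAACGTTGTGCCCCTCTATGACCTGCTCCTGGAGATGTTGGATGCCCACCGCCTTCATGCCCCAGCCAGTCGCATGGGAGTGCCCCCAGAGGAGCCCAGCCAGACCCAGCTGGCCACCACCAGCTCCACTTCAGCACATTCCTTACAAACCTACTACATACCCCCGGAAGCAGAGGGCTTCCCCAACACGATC

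The lower-case start of exon 5 is the 17 nt not covered by the peak. In exons 6 to 9, every coding base lay inside a peak.

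At these exons, Pol II signal was high in both *Mettl3* KO libraries and close to 0 in the other 4. The exon 5 peak had values of 260 and 301 in *Mettl3* KO, against 0 and 0 for WT and 3 and 2 for *Trdn-as* KO. At exon 6, the values were 94 and 109 in *Mettl3* KO, against 0 and 0 for WT and 2 and 2 for *Trdn-as* KO. At exon 7, they were 104 and 101 in *Mettl3* KO, against 1 and 0 for WT and 1 and 0 for *Trdn-as* KO. Both *Mettl3* KO libraries lay above the other 4 at each of these exons, which is what the peaks were chosen for, and the same held for 21.1% of all Pol II peaks that passed the filter on low values (10 or more in at least 2 of the 6 libraries). The exon 8 peak had values of 125 and 134 in *Mettl3* KO, against 1 and 0 for WT and 0 and 4 for *Trdn-as* KO. The exon 9 peak had 167 and 171 in *Mettl3* KO, against 0 and 0 for WT and 0 and 2 for *Trdn-as* KO. Within the *Mettl3* KO libraries, the 5 peaks were higher than 76.1% to 90.1% of all Pol II peaks that passed the filter on low values, whose median value was 24 and 22.

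Summed over the 5 exons, Pol II values were 783 ± 46.7 (SD, n = 2) in *Mettl3* KO, against 1.0 ± 1.41 (SD, n = 2) for WT and 8.0 ± 2.83 (SD, n = 2) for *Trdn-as* KO. These sums stand for 620 and 510 reads in *Mettl3* KO, 2 and 0 reads for WT and 6 and 5 reads for *Trdn-as* KO. In RPM pooled over both libraries, *Mettl3* KO was 625-fold above WT, with an exact 95% interval of 173 to 5170. Intervals of this kind cover counting error only and not the spread between animals. As the peaks were chosen on this contrast, the interval is a description and no test.

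How even the Pol II signal was over the 5 exons depended on the length it was set against. Reads aligned as spliced had been removed by the authors. This may lower the exons to unlike degrees, which was not tested. Per 100 nt of peak, the bases over which reads were counted, the mean value in *Mettl3* KO was 76.2 at exon 5, against 41.1, 40.7, 44.8 and 51.7 at exons 6, 7, 8 and 9. Per 100 coding nt, the mean value in *Mettl3* KO was 83.5 at exon 5, 73.0 at exon 6, 76.5 at exon 7, 70.4 at exon 8 and 72.8 at exon 9. Exon 5, which holds 32.8% of the coding bases of the 5 exons, carried 35.8% of their signal. Exon 9 held 22.6% of the bases and carried 21.6% of the signal, and exon 6 held 13.6% and carried 13.0%. In replicates 1 and 2, the values per 100 coding nt were 77.4 and 89.6 at exon 5, 67.6 and 78.4 at exon 6, and 77.6 and 75.4 at exon 7. They were 67.9 and 72.8 at exon 8 and 72.0 and 73.7 at exon 9. Within each library, exon 5 was thus above exons 6, 8 and 9, whereas its order with exon 7 changed between the libraries.

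The same 5 peaks had signal in the *Mettl3* KO libraries of the other antibodies. In the CTCF libraries, the sum over the 5 exons was 28 and 32 in *Mettl3* KO, against 0 and 0 for WT and 1 and 3 for *Trdn-as* KO. A CTCF value of 0 can hide 1 read per peak after rounding, and with this floor of 10 reads over both WT libraries, *Mettl3* KO was at least 18.0-fold higher in RPM. The highest CTCF values in *Mettl3* KO were 9 and 7 at exon 5, 3 and 9 at exon 8, and 10 and 9 at exon 9. In the IgG libraries, the sum was 143 in *Mettl3* KO, against 39 for WT and 20 for *Trdn-as* KO, which corresponds to 31, 15 and 3 reads. The IgG level of *Mettl3* KO was 4.54-fold that of WT in RPM, with an exact 95% interval of 2.38 to 9.06 and no replicate.

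Set per kb of peak, the *Mettl3* KO libraries held 42.0 RPM of Pol II, 2.49 RPM of CTCF and 2.78 RPM of IgG at the 5 exons. In WT, the levels were 0.0776 RPM per kb for Pol II, 0 for CTCF and 0.611 for IgG. The rise in RPM per kb was thus of similar size in the CTCF and IgG libraries and far larger in the Pol II libraries. No *Esr1* peak reached a mean CTCF value of 50, the level fixed for calling a CTCF site, and the highest CTCF value in any library was 22.

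**Figure D2:**
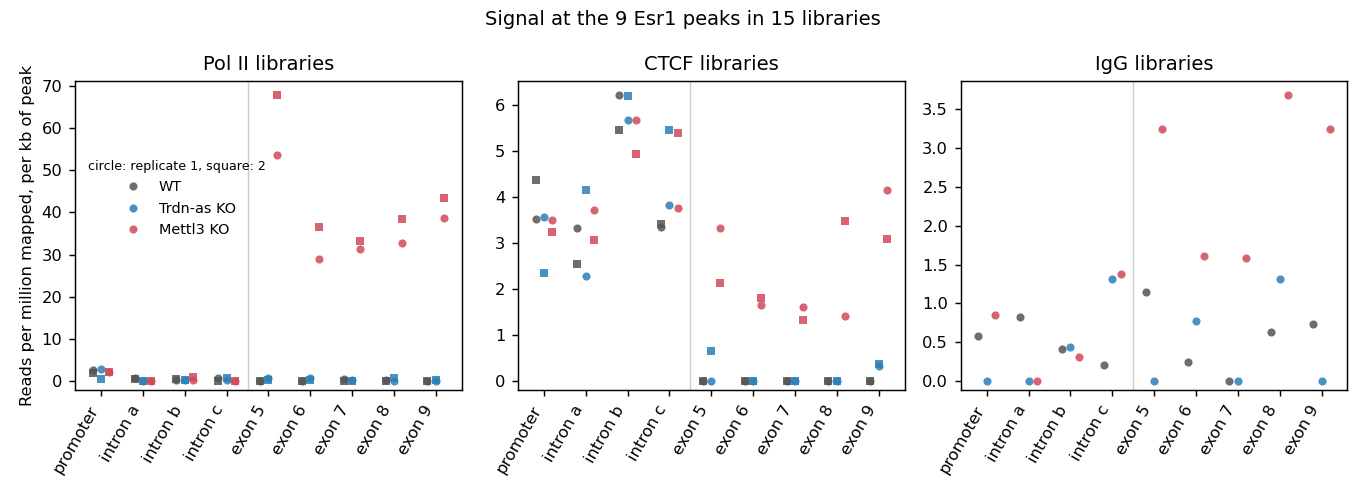
RPM per kb of peak at the 9 *Esr1* peaks, in 6 Pol II, 6 CTCF and 3 IgG libraries; each point is 1 library. The 5 exon peaks are high in both Pol II libraries of *Mettl3* KO (red), at 29.0 to 67.8, and are also raised in its CTCF and IgG libraries, while the 4 other peaks lie at 0 to 2.93 with Pol II and at 2.28 to 6.20 with CTCF over all genotypes.

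The other 4 *Esr1* peaks did not show this pattern. Their summed Pol II values were 9 and 13 in *Mettl3* KO, against 15 and 11 for WT and 15 and 10 for *Trdn-as* KO, so that the genotypes overlapped. In RPM, *Mettl3* KO was at 0.805 of the WT level for Pol II, with an interval of 0.395 to 1.6. For CTCF, the ratio was 1.00 with an interval of 0.842 to 1.2, and for IgG 1.47 with an interval of 0.429 to 4.61. The *Esr1* promoter peak, at 4561762 to 4562072, had Pol II values of 8 and 8 in *Mettl3* KO, against 10 and 7 for WT and 13 and 4 for *Trdn-as* KO. With limma on log2(value + 1), the promoter differed from WT by -0.06 ± 0.76 (SE) in *Mettl3* KO (adjusted p = 0.98) and by -0.17 ± 0.76 (SE) in *Trdn-as* KO (adjusted p = 0.99). An intron peak at 4625000 to 4625430 had the highest CTCF values on the gene, 18 and 19 in *Mettl3* KO, against 22 and 19 for WT and 22 and 22 for *Trdn-as* KO.

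For Pol II, 8 of the 11 members passed the filter on low values. The 5 exon peaks passed it through the *Mettl3* KO libraries alone, and the others were both *Myh6* peaks and the *Esr1* promoter. Since the exon peaks held values of only 0 to 4 in WT and *Trdn-as* KO, these genotypes are not compared with each other at the exons. Of the other 3 members, limma called 1 in *Trdn-as* KO against WT at an adjusted p below 0.05, the broad *Myh6* peak. Over all Pol II peaks tested, 0.304% were called in this comparison. An unadjusted p below 0.05 was found for both *Myh6* peaks and not for the *Esr1* promoter, and for 7.7% of all peaks. In *Mettl3* KO against WT, 0 of the 3 members whose Pol II values did not choose them were called by limma, with 1 at an unadjusted p below 0.05. Over all peaks, 1.19% were called in this comparison and 15.5% had an unadjusted p below 0.05. In the CTCF libraries, 5 of 11 members passed the filter. By limma, 0 of 5 were called in *Trdn-as* KO against WT, with 2 at an unadjusted p below 0.05, while over all CTCF peaks 0.587% were called and 10.2% had an unadjusted p below 0.05. In *Mettl3* KO against WT, 0 of the 4 CTCF peaks that were not chosen by this contrast were called by limma, and 0 had an unadjusted p below 0.05, while 0.185% of all peaks were called and 15.7% had an unadjusted p below 0.05.

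The *Myh6* gene lies on the minus strand of chromosome 14 from 55179378 to 55204384 in GRCm39. The peak with the symbol *Myh6*, at 55181949 to 55214903, is the longest of all union peaks with 32955 nt. It covers 89.7% of the gene, goes on for 10519 nt upstream, and there takes in the whole intergenic stretch of 3756 nt and 6763 nt at the end of *Myh7*, the gene of β-myosin heavy chain. Promoter, gene body and the end of *Myh7* thus share 1 value and could not be compared with each other. The other *Myh6* peak, at 55174715 to 55181870, starts 78 nt further on, covers the last 2493 nt of the gene, and is annotated to *Cmtm5*, the next gene downstream.

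The *Myh6* promoter lies inside the broad peak, and a sequence from it is shown because the transgene is named for this promoter. Which stretch of promoter the transgene carries was not determined. The sequence shown is taken from RefSeq for GRCm38.p6, minus strand, chr14:54966558-54966857. It has 250 bases before and 50 after the start site of that table, and capitals mark motif matches. This start site lies 320 nt inside the start of the gene model used for the distances above.
*Myh6* promoter: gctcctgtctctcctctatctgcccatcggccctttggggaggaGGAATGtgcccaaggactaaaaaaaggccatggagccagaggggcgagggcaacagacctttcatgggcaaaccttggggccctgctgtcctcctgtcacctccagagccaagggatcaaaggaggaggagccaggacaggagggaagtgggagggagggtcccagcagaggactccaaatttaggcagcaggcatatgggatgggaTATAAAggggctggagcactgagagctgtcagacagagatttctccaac
Of 3 motifs searched on both strands, the TATA box letters TATAAA matched at position 252 of the 300 bases, 1 nt past the start site of the table and not upstream of it, and the TEAD site letters GGAATG at position 45, whereas the GATA site letters AGATAA were not found in this window. TATAAA was present in 13.6%, GGAATG in 14.7% and AGATAA in 11.2% of the 32851 promoters of the same length.

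The broad *Myh6* peak had the highest Pol II value of all peaks in each of the 6 Pol II libraries. Its values were 10654 and 11527 for WT, 11283 and 11566 for *Mettl3* KO and 9901 and 7625 for *Trdn-as* KO. *Mettl3* KO overlapped with WT, while both *Trdn-as* KO libraries lay below. By value per kb, it ranked between 107 and 1217. It took 0.188% to 0.247% of all Pol II reads in peaks.

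Pol II at *Myh6* was not called different between *Mettl3* KO and WT, with a log2 fold change of 0.04 ± 0.08 (SE, limma, adjusted p = 0.84) and a median of 0.0763 over all peaks tested. In *Trdn-as* KO it was lower, with -0.35 ± 0.08 (SE, adjusted p = 0.029) against a median of -0.0699 over all peaks. This call depended on the processing and on 1 library. Without replicate 2 of *Trdn-as* KO, the library with the low share of reads in peaks, the difference was -0.16 (adjusted p = 0.18), and it stayed below an adjusted p of 0.05 in only 2 of 13 alternatives, 1 of which rests on this library alone for *Trdn-as* KO. *Tnnt2*, the gene of cardiac troponin T, had the same log2 fold change of -0.35 in *Trdn-as* KO without passing the test (adjusted p = 0.24).

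In the CTCF libraries, the values of the broad *Myh6* peak were 455 and 480 in *Mettl3* KO, against 299 and 289 for WT and 340 and 322 for *Trdn-as* KO. Both *Mettl3* KO libraries lay above the other 4, as they did at 6.59% of all CTCF peaks that passed the filter. The log2 difference between *Mettl3* KO and WT was 0.67, the value for which the gene was chosen. *Trdn-as* KO lay between both, with a log2 fold change against WT of 0.17 ± 0.06 (SE, limma) that was not called (adjusted p = 0.35). By value per kb, the peak ranked between 84202 and 95397 of 101256 in the CTCF libraries.

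The IgG values of the broad peak were 1354 in *Mettl3* KO, against 1003 for WT and 1057 for *Trdn-as* KO, from 294, 394 and 161 reads. This was the highest IgG value of all peaks in both knock-outs and the second highest in WT. In RPM, *Mettl3* KO was at 1.64 times the WT level, with an exact 95% interval of 1.41 to 1.91. *Trdn-as* KO was at 1.28 times the WT level, with an interval of 1.06 to 1.55. Over all union peaks together, the IgG ratio of *Mettl3* KO to WT was 1.16.

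**Figure D3:**
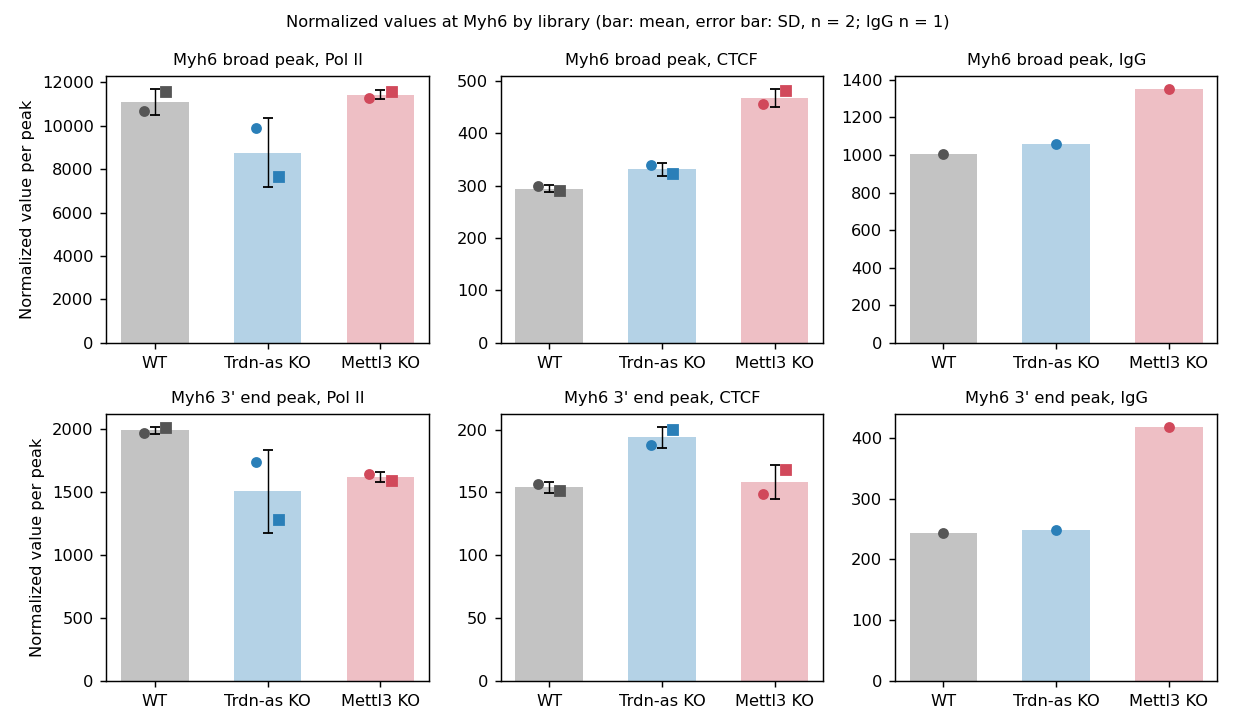
Normalized values of the 2 *Myh6* peaks by antibody and genotype. Points are libraries, bars their mean, error bars the SD of 2 libraries (none for IgG, 1 library each). At the broad peak, *Mettl3* KO is highest with CTCF (455 and 480) and IgG (1354), but overlaps with WT with Pol II.

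In the CTCF libraries, *Mettl3* KO was not above WT in both libraries at the peak on the 3′ end of *Myh6*. Its CTCF values were 149 and 168 in *Mettl3* KO, against 157 and 151 for WT and 188 and 200 for *Trdn-as* KO. *Mettl3* KO overlapped with WT here, with a log2 fold change of 0.04 ± 0.09 (SE, limma, adjusted p = 0.86). *Trdn-as* KO was higher than the others by value, without being called against WT (log2 fold change 0.33 ± 0.09 (SE), adjusted p = 0.13). Its Pol II values were 1645 and 1588 in *Mettl3* KO, against 1972 and 2012 for WT and 1741 and 1275 for *Trdn-as* KO. Both knock-outs lay below WT, but neither difference passed the test (log2 fold changes -0.30 ± 0.12 (SE, limma, adjusted p = 0.21) and -0.42 ± 0.12 (SE, adjusted p = 0.17)). For *Trdn-as* KO, the value rested on 1 library and on the scaling: it was -0.19 without replicate 2, -0.64 (adjusted p = 6.9e-05) without replicate 1, where the remaining library is assumed to vary like the other groups, and -1.02 under scaling to uniquely mapped reads, where the median of all peaks was -0.666. For *Mettl3* KO, the difference of -0.30 was called with only the genotypes compared in the fit (adjusted p = 0.0033) and without either *Trdn-as* KO library (adjusted p = 0.0022). With IgG, the values were 419 in *Mettl3* KO, against 244 for WT and 249 for *Trdn-as* KO, and *Mettl3* KO was at 2.08 times the WT level in RPM with an interval of 1.55 to 2.81.

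Within a library, the ratio of the broad peak to the 3′ end peak does not depend on normalization. In the CTCF libraries it was 3.05 and 2.86 in *Mettl3* KO, against 1.90 and 1.91 for WT and 1.81 and 1.61 for *Trdn-as* KO. For Pol II it was 6.86 and 7.28 in *Mettl3* KO, against 5.40 and 5.73 for WT and 5.69 and 5.98 for *Trdn-as* KO. The *Mettl3* KO libraries had the highest ratios with both antibodies. For CTCF, this repeats the value of the broad peak on which *Myh6* was chosen, and it adds nothing to the Pol II ratio. For Pol II, the mean of *Mettl3* KO minus that of the other 4 libraries was 0.311 on the log2 scale, which is a description. With IgG, in contrast, the ratio was lowest in *Mettl3* KO, at 3.23 against 4.11 in WT and 4.24 in *Trdn-as* KO. This ratio was chosen after the values were seen and is not tested.

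At the 5 *Esr1* exons, the mean RPM in *Mettl3* KO minus that in WT was 62.2 for Pol II, 3.69 for CTCF and 3.21 for IgG. At the broad *Myh6* peak, the same difference was 21.7 for CTCF and 15.2 for IgG. With Pol II its direction depended on the scaling, with -63.8 in RPM and 334 on the deposited values, and no order of antibodies is drawn from it. In RPM, the Pol II difference was smaller than the gap between both WT libraries, which had 899.9 and 1043.

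Other contractile genes are given beside *Myh6* as a description, since *Myh6* was chosen for its CTCF difference and they were not. The list holds 13 genes of the sarcomere, of which 11 had a promoter peak, and *Myl4* and *Myl7* had none. In the CTCF libraries, their log2 fold changes in *Mettl3* KO against WT ran from -0.15 to 0.29 with a median of 0.02, and limma called 0 of 11, against 0.185% of all peaks, with 1 at an unadjusted p below 0.05, against 15.7%. The median over all CTCF peaks was -0.0611. *Myl2*, the gene of the ventricular myosin light chain, had CTCF values of 420 and 432 in *Mettl3* KO, against 418 and 421 for WT and 471 and 432 for *Trdn-as* KO. The IgG ratio of *Mettl3* KO to WT was 0.956 to 1.82 over the 11 genes with a median of 1.37. It exceeded the *Myh6* ratio in 1 of them, *Myl2*, at 1.82 with an interval of 1.44 to 2.3.

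For Pol II, 1 of the 11 contractile genes was called in *Mettl3* KO against WT, where 1.19% of all peaks were, and 2 of 11 had an unadjusted p below 0.05, against 15.5% of all peaks. *Myh7*, the neighbour of *Myh6* and the slow myosin heavy chain, had values of 2586 and 2617 in *Mettl3* KO, against 4531 and 4807 for WT and 4451 and 3581 for *Trdn-as* KO. It fell by 0.84 ± 0.10 (SE) on the log2 scale (limma, adjusted p = 3.7e-08), and the end of this gene is part of the broad *Myh6* peak. The other 10 were between -0.12 and 0.65, and the median of the 11 was 0.09. In *Trdn-as* KO against WT, limma called 0 of 11 for Pol II, against 0.304% of all peaks, with 2 at an unadjusted p below 0.05, against 7.7%. For CTCF it called 0 of 11, against 0.587% of all peaks, with 1 at an unadjusted p below 0.05, against 10.2%.

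**Figure D4:**
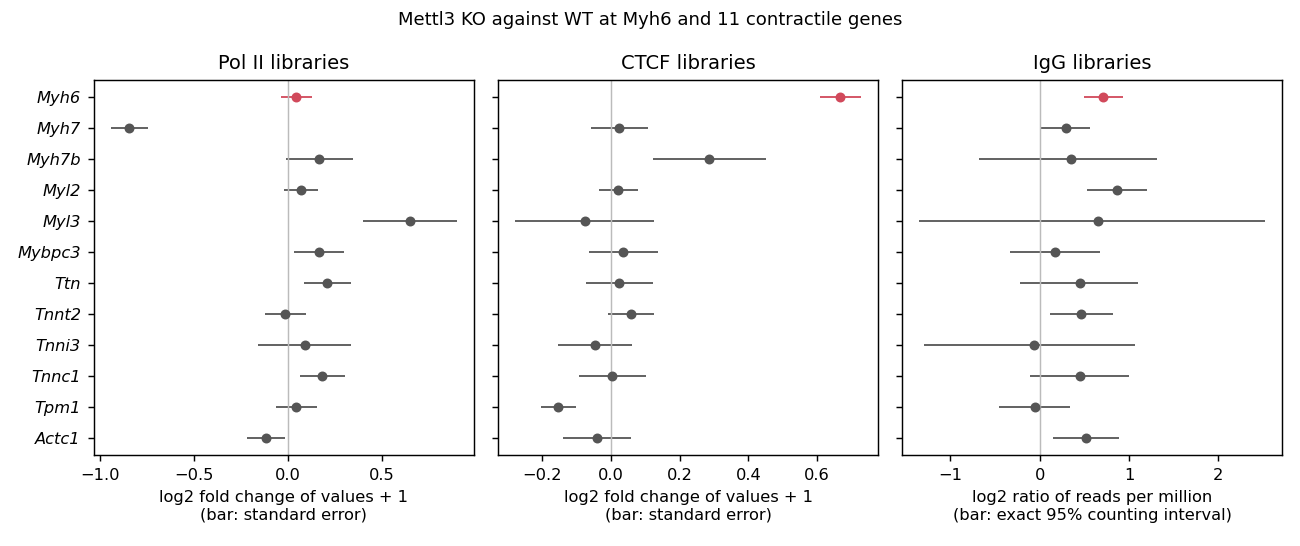
*Mettl3* KO against WT at the broad *Myh6* peak (red) and at the promoter peaks of 11 contractile genes. Points show the log2 fold change with its standard error for Pol II and CTCF, and the log2 ratio of RPM with its exact 95% counting interval for IgG; *Myh6*, which was chosen for its CTCF difference, is at 0.67 with CTCF and at 0.04 with Pol II, and *Myh7* is at -0.84 with Pol II.

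Of 10 regulators and co-regulated genes of the αMHC promoter, 9 had a promoter peak, *Mef2c* being the exception. With Pol II, limma called 1 of 9 in *Mettl3* KO against WT, where 1.19% of all peaks were called, and 2 of 9 had an unadjusted p below 0.05, against 15.5% of all peaks. *Nppb*, which encodes B-type natriuretic peptide, a hormone released by stressed ventricles, was higher in *Mettl3* KO with 1089 and 1088 against 673 and 706 in WT (log2 fold change 0.66 ± 0.14 (SE), limma, adjusted p = 0.0046). *Thra*, a thyroid hormone receptor, had 708 and 661 against 492 and 453 and did not pass (adjusted p = 0.061). The transcription factors *Gata4* (0.25, adjusted p = 0.40), *Tead1* (0.32, adjusted p = 0.35), *Tbx5* (-0.17, adjusted p = 0.69) and *Nkx2-5* (-0.01, adjusted p = 0.98) did not pass either. In *Trdn-as* KO, limma called 0 of 9 with Pol II, against 0.304% of all peaks, and 0 of 9 had an unadjusted p below 0.05, against 7.7% of all peaks. With CTCF, 0 of 9 were called in either knock-out, against 0.185% (*Mettl3* KO) and 0.587% (*Trdn-as* KO) of all peaks, with 0 (*Mettl3* KO, 15.7% of all peaks) and 1 (*Trdn-as* KO, 10.2% of all peaks) at an unadjusted p below 0.05. The fibroblast genes *Col1a1*, *Col1a2* and *Pdgfra*, 3 of 4 markers, were also called higher for Pol II in *Mettl3* KO (log2 fold changes 1.09 to 1.19), against the 1.19% of all peaks called in either direction, and the part of cell composition in these differences was not tested.

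Genes of estrogen receptor signalling were listed to see whether the *Esr1* signal came with others. Of 14 genes, 13 had a promoter peak, and *Pgr*, the progesterone receptor gene, had none. With Pol II, 10 passed the filter and limma called 0 of 10 in either knock-out, against 1.19% (*Mettl3* KO) and 0.304% (*Trdn-as* KO) of all peaks. An unadjusted p below 0.05 was found for 3 (*Mettl3* KO, 15.5% of all peaks) and 0 (*Trdn-as* KO, 7.7% of all peaks). Their median log2 fold change in *Mettl3* KO was 0.28 against 0.0763 over all peaks. All 10 genes also passed the stricter Pol II filter of 50 in 2 libraries, and the median over the peaks passing it was 0.211. The list thus lay nearer to these stronger peaks than to all peaks, and the remaining difference was not tested. *Esr2*, the gene of estrogen receptor β, had Pol II values of 5 and 5 in *Mettl3* KO, against 1 and 5 for WT and 10 and 8 for *Trdn-as* KO. *Greb1*, a target gene of the receptor, had 4 and 3, 7 and 5, and 5 and 4 in the same order. With CTCF, limma called 0 of 12 in either knock-out, against 0.185% (*Mettl3* KO) and 0.587% (*Trdn-as* KO) of all peaks, with 0 (*Mettl3* KO, 15.7% of all peaks) and 2 (*Trdn-as* KO, 10.2% of all peaks) at an unadjusted p below 0.05.

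The neighbours of *Esr1* were not called. *Armt1*, upstream of the gene, had Pol II values of 393 and 381 in *Mettl3* KO and 325 and 330 in WT (log2 fold change 0.24 ± 0.17 (SE), limma, adjusted p = 0.51). *Syne1*, downstream, had 116 and 94 against 114 and 80 (adjusted p = 0.85). With Pol II, limma called 0 of 4 neighbours in either knock-out, against 1.19% (*Mettl3* KO) and 0.304% (*Trdn-as* KO) of all peaks, and 0 of 4 had an unadjusted p below 0.05, against 15.5% and 7.7%. With so few peaks, counts of 0 are near these shares. With CTCF, it called 0 of 3, against 0.185% and 0.587% of all peaks, with 1 (*Mettl3* KO, 15.7% of all peaks) and 0 (*Trdn-as* KO, 10.2% of all peaks) at an unadjusted p below 0.05. Next to *Myh6*, *Efs* had Pol II values of 326 and 269 in *Mettl3* KO and 181 and 185 in WT and did not pass (log2 fold change 0.69 ± 0.20 (SE), adjusted p = 0.055). The promoter peak of *Cmtm5* is the 3′ end peak of *Myh6* itself, which leaves *Efs*, *Myh7* and *Gm17428* as neighbours that are no members. The *Gm17428* peak, at 55217383 to 55221618, lies inside the *Myh7* gene, so that *Myh7* and *Gm17428* are not independent here. With Pol II in *Mettl3* KO, limma called 1 of these 3, *Myh7*, against 1.19% of all peaks, and all 3 had an unadjusted p below 0.05 against 15.5% of all peaks, *Efs* with a higher value and *Myh7* and *Gm17428* with lower ones. In *Trdn-as* KO, limma called 0 of 3, against 0.304% of all peaks, with 1 at that level, against 7.7%. With CTCF, limma called 0 of 3 in either knock-out, against 0.185% (*Mettl3* KO) and 0.587% (*Trdn-as* KO) of all peaks. An unadjusted p below 0.05 was found for 1 of 3 in *Mettl3* KO, against 15.7% of all peaks, and for 2 of 3 in *Trdn-as* KO, against 10.2%. The 1 in *Mettl3* KO was *Efs*, with CTCF values of 54 and 53, against 32 and 41 for WT and 52 and 47 for *Trdn-as* KO. Its log2 fold change in *Mettl3* KO was 0.55 ± 0.15 (SE, limma, adjusted p = 0.098), and those of *Myh7* and *Gm17428* were 0.025 and 0.107.

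The peaks most like the *Esr1* exons were far weaker. The exon peaks were chosen on the contrast that likeness measures, so their lead is a description and no test. Likeness was measured for Pol II as the gap, on log2(value + 1), between the lower *Mettl3* KO library and the highest of the other 4, and was 4.66 to 6.03 for the 5 exon peaks. The next largest gap, 2.58, was shared by 2 peaks. A peak on chromosome 3 at 92596581 to 92596758, annotated to *Lce1d*, a gene of the skin barrier, had values of 29 and 35 in *Mettl3* KO, against 0 and 0 for WT and 0 and 4 for *Trdn-as* KO. A peak without a gene on chromosome 15 at 10672153 to 10672304 had 13 and 11, 1 and 0, and 0 and 0. The remaining 3 of the 5 nearest peaks had gaps of 1.87 to 2.00 and no gene. For *Myh6*, the peaks nearest over all 15 libraries included *Myl2*, *Pln*, the gene of the calcium pump inhibitor phospholamban, and *Myh7*, with root mean square differences of 0.865, 0.993 and 1.08 on log2(value + 1), next to 2 peaks without a gene symbol at 0.718 and 0.909.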

How the data were processed

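Chromatin of mouse ventricles was sequenced after immunoprecipitation with Pol II, CTCF or IgG antibodies (15 libraries used). Per the labels and methods, the authors used Trimmomatic 0.39 for trimming and STAR 2.7.11b for alignment to GRCm39, removed duplicates with Picard 3.1.1 as well as spliced and multi-mapping reads, called peaks with MACS, merged them, counted reads with featureCounts and normalized with DESeq2. The deposited values are normalized counts rounded to whole numbers, a score and not raw counts, so count models were not used. Reads aligned across a junction of exons were thereby dropped.

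Peaks were tested with limma 3.58.1 (R 4.3.3) on log2(value + 1), with a variance trend, all 3 genotypes of an antibody in 1 fit, values of at least 10 in at least 2 libraries, and Benjamini-Hochberg adjustment over all peaks. The value of 1 read was estimated from the spacing of values and tested on simulated data. Exact 95% intervals used pooled estimated reads. A group at 0 was set to a floor of 3 reads, or to the reads that rounding can hide if more. Where nothing says that libraries came from separate animals, p-values measure the spread between libraries, which may be technical. The members, the gene lists (contractile, αMHC promoter regulators, estrogen receptor), the neighbours and the markers were chosen with earlier results of these data known. For listed genes, the promoter peak with the highest mean Pol II value was used, and likeness named the 5 nearest peaks. Exon positions came from GENCODE vM21 of GRCm38 by distance from the gene start, since gene lengths are equal in both builds. Alternatives were scaling, filter, pseudocount, genotypes in the fit, variance trend, replicate block, threshold and leaving out each library.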

Additional observations from a re-analysis of the deposited data

How the results depend on the processing

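Lower Pol II at *Myh6* in *Trdn-as* KO than in WT (log2 -0.351) kept its direction in all 13 alternatives but passed the threshold in only 2 of them, a pseudocount of 5 (adjusted p = 0.0048) and the fit without *Trdn-as* KO replicate 1 (adjusted p = 5.4e-05). The latter leaves 1 *Trdn-as* KO library, the one with 18.6% of its reads in peaks, which is assumed to vary like the other groups. Scaling to uniquely mapped reads gave -0.952 (adjusted p = 0.29), against a median of -0.666 over all peaks. It stayed at -0.351, with an adjusted p of 0.056 to 0.84, without the filter, with the filter of 50, with only the 2 genotypes, without the variance trend and with the replicate block (adjusted p = 0.06). Leaving out a library gave -0.539 to -0.163, the latter without *Trdn-as* KO replicate 2 (adjusted p = 0.18), and the call was also lost without any 1 of the WT or *Mettl3* KO libraries (adjusted p = 0.83 to 1). Calls among both *Myh6* peaks in this comparison fell from 1 to 0 under these 5 settings, under mapped-read scaling and at an adjusted p below 0.01, and ran from 0 to 2 without a library.

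Pol II at *Myh6* in *Mettl3* KO against WT (0.044) turned to -0.096 under mapped-read scaling, where the median of all peaks was -0.0582, and ran from -0.013, without WT replicate 1, to 0.101 without a library. It was not called in any of the 13 alternatives. Calls among both *Myh6* peaks rose from 0 to 1, the 3′ end peak, with only the 2 genotypes, and ran from 0 to 1 without a library, with 1 call without either *Trdn-as* KO library. CTCF at the 3′ end peak in *Mettl3* KO (0.039) ran from -0.047, without *Mettl3* KO replicate 2, to 0.125 without a library. For these changes, the cause was not tested. At the same peak, CTCF in *Trdn-as* KO was called with the filter of 50 (adjusted p = 0.047). CTCF at *Myh6* in *Trdn-as* KO (0.17) was not called in any of 14 alternatives, and in *Mettl3* KO the difference stayed within 0.629 to 0.706.

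The replicate numbers did not pair the libraries (correlation of deviations -0.238 to 0.0059). The replicate block gave 201 in place of 160 Pol II calls in *Trdn-as* KO, 756 in place of 629 in *Mettl3* KO, 236 in place of 356 CTCF calls in *Trdn-as* KO, and 2 in place of 112 in *Mettl3* KO, and among the members it ended the call at *Myh6*. Over all alternatives, the calls among all peaks ran from 2 to 2185 (Pol II, *Trdn-as* KO), 0 to 4975 (Pol II, *Mettl3* KO), 1 to 503 (CTCF, *Trdn-as* KO) and 0 to 152 (CTCF, *Mettl3* KO). Mapped-read scaling turned 375 higher and 254 lower Pol II calls in *Mettl3* KO into 9 and 21, 42 and 118 in *Trdn-as* KO into 10 and 113, 211 and 145 CTCF calls in *Trdn-as* KO into 124 and 161, and 60 and 52 in *Mettl3* KO into 100 and 52. With the *Trdn-as* KO numbers crossed, an alternative chosen after seeing the data, CTCF calls in *Trdn-as* KO were 503. The planned ratio of *Myh6* upstream to body and the counts of CTCF sites on *Esr1* could not be given, as 1 peak spans both stretches and no *Esr1* peak reached a CTCF value of 50. The IgG ratios fell from 4.54 to 3.91 at the *Esr1* exons and from 1.64 to 1.41 at *Myh6* with reads in peaks as library size. With 2 libraries a group, small differences at *Myh6* cannot be resolved, and IgG values had no replicate.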
